A study of Mus musculus with 6 samples.

Results

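The contractile smooth muscle actin genes described here are 10 genes whose transcription is driven by serum response factor (SRF) in smooth muscle cells and myofibroblasts. They are Acta2, Actg2, Acta1, Tagln, Cnn1, Myl9, Tpm1, Tpm2, Lmod1 and Fhl1, chosen by symbol out of 18193 genes on the array, and all 10 were found, on 19 probe sets that each carry 1 gene symbol. Of the 19, 16 passed the intensity filter, the brightest of every gene among them, and 1 each of Acta2, Tpm1 and Fhl1 did not. The cells were primary fibroblasts of 12.5 dpc mouse embryos from crosses between heterozygotes for a deletion of exon 2 of Cas (p130Cas, gene Bcar1), and were grown in DMEM with 10% fetal calf serum. The 3 genotypes were Cas exon 2+/+ (wild type), Cas exon 2+/Δ (heterozygote) and Cas exon 2Δ/Δ (homozygote), with 2 embryos and 1 array for each embryo. The strain is given as B6 for every array except wild type 1, which has no strain entry. A culture holds whatever cell types were left after heads and internal organs were taken for genotyping.

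In fibroblasts, adhesion and force on the actin cytoskeleton are among the inputs that set these genes. When monomeric actin is polymerized into stress fibres, the myocardin-related cofactors Mrtfa and Mrtfb are released from it, enter the nucleus and bind SRF at a short DNA element, the CArG box, upstream of actin and actin-binding genes. A fibroblast that takes on this programme is called a myofibroblast and is recognised by smooth muscle actin in its fibres. Cas sits at integrin adhesions, where it is phosphorylated on stretch by Src-family kinases.

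The median deposited intensity of the 6 arrays lay between 21.9 and 27.3. Fibroblast markers were present, with 7 of 7 above the intensity filter that kept the brighter 50% of the probe sets. Xist was high in wild type 1 and both heterozygotes (log2 intensity 8.82 to 10.29) and low in wild type 2 and both homozygotes (3.70 to 5.31), and the Y-linked Eif2s3y was the reverse, so between homozygotes and heterozygotes embryo sex and genotype cannot be told apart. The 2 arrays of a genotype are separate embryos, and p-values measure the spread between these cultures. In bulk RNA, fewer contractile cells and less contractile RNA per cell cannot be told apart.

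The CArG box has 10 bases, with a core of 6 A or T bases between a pair of C and a pair of G, and it reads as a CArG box on both strands. RefSeq promoter windows (GRCm38.p6) were matched for 8 of the 10 genes, with 9 windows in all, and the 250 bases before each start were searched. A CArG box was found in 3 of the 9 windows (1 each of Acta1, Myl9 and Fhl1), against 1.47% of 32851 windows of all genes. Because the 10 genes were chosen as driven by SRF, this contrast describes them and tests nothing. Boxes with 1 core base changed to C or G were found for Acta2, Acta1 and Myl9, and 7.24% of all windows hold such a box. The 8 matches of both kinds are shown with 10 bases on each side, because SRF is known to act through the CArG box. The capitals mark the match. They are matches of letters, and binding of SRF to them was not measured. The windows of Cnn1, Tpm1, Tpm2 and Lmod1, and the other window of Fhl1, held no such letters.

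Acta2 at 84 to 75 bases before the start: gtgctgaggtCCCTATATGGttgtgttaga
Acta2 at 34 to 25 bases before the start: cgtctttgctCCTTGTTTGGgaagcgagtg
Acta1 at 205 to 196 bases before the start: gggatactctCCATATACGGcctggtccgg
Acta1 at 154 to 145 bases before the start: ccagtcctctCCTTCTTTGGtcagtgcagg
Acta1 at 73 to 64 bases before the start: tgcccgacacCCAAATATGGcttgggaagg
Myl9 at 161 to 152 bases before the start: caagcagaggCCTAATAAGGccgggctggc
Myl9 at 99 to 90 bases before the start: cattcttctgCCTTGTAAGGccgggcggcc
Fhl1 at 102 to 93 bases before the start: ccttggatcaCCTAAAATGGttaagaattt

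In the order of these lines, the stretches lie at chr19:34255438-34255467 and chr19:34255388-34255417 (minus strand), chr8:123894961-123894990, chr8:123894910-123894939 and chr8:123894829-123894858 (minus strand), chr2:156775293-156775322 and chr2:156775355-156775384 (plus strand), and chrX:56779571-56779600 (plus strand). Acta1 was the gene with 3 matches in its window, 2 of them with 1 core base changed. Its 250 bases before the start (chr8:123894776-123895025, minus strand) are shown whole for that reason, with the same capitals.

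Acta1 promoter: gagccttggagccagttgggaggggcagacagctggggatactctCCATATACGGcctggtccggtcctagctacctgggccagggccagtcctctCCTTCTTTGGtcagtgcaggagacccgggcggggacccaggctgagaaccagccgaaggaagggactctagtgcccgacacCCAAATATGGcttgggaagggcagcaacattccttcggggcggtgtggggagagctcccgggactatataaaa

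The contractile genes varied together over the 6 cultures, in an order that kept the homozygote cultures apart. Both wild-type arrays lay above both heterozygote arrays for 7 of 10 genes, as for 19.3% of tested probe sets. Wild type 1 was the highest array for 10 of 10 genes, where 26.4% of the 22519 tested probe sets had their highest value there. Homozygote 1 was the lowest for 9 of 10, where the share of all tested probe sets was 22%. The other homozygote culture, homozygote 2, was the second highest array for 8 of the 10. For 6 genes (Actg2, Acta1, Tagln, Cnn1, Myl9 and Tpm2) the whole order was the same, from wild type 1 through homozygote 2, wild type 2, heterozygote 2 and heterozygote 1 to homozygote 1, an order found in 1.01% of tested probe sets. That order was read from the members themselves, so these shares describe it and test nothing. All values below are quantile-normalized log2(intensity + 1.78), and a level of one gene is not set against that of another, since probes differ in brightness.

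**Figure D1:**
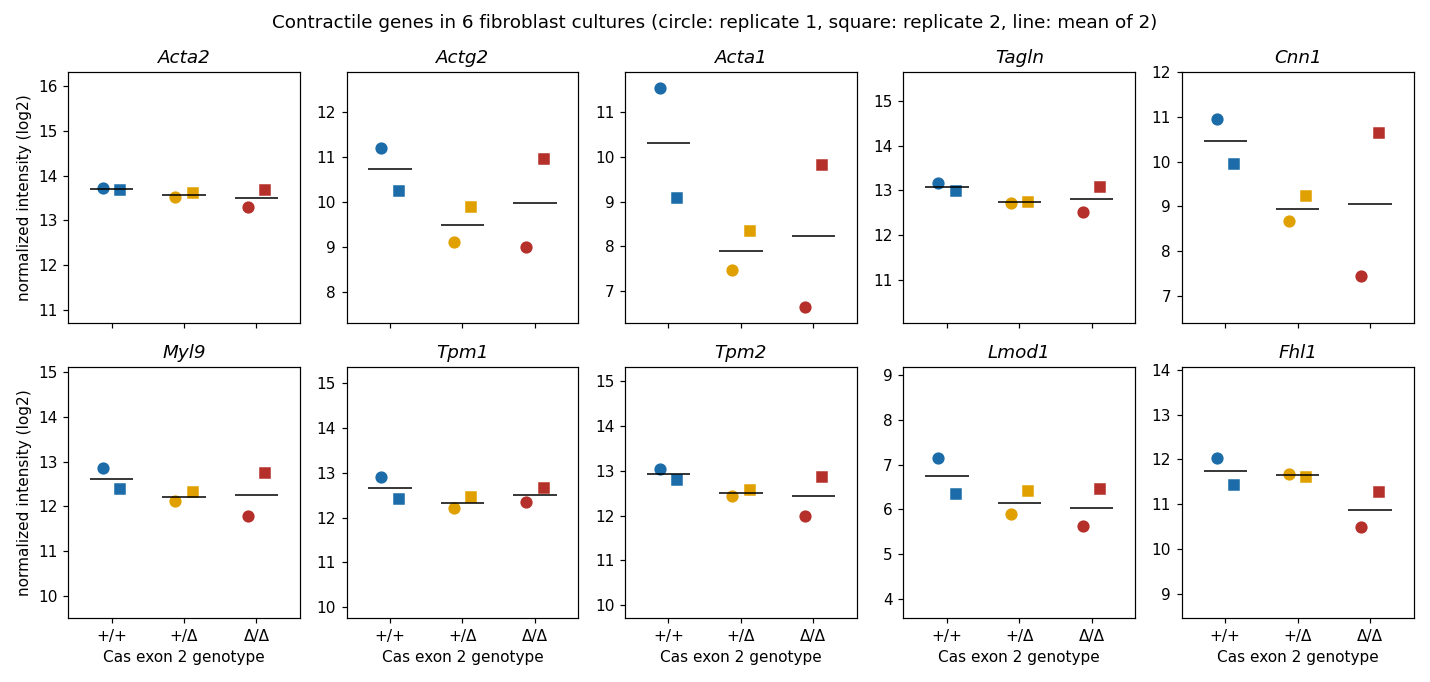
Normalized log2 intensity (vertical axes, each with the same span) of the 10 contractile genes by Cas exon 2 genotype (horizontal axes), with circles for replicate 1, squares for replicate 2 and a line at the mean of 2 arrays. The homozygote arrays of Acta1 (6.65 and 9.81) and Cnn1 (7.45 and 10.64) lie farther apart than the genotype means.

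Among the actins, Acta2 encodes the smooth muscle alpha-actin that defines myofibroblasts. Its brightest probe set read 13.73 and 13.69 in wild type, 13.52 and 13.61 in the heterozygotes, and 13.30 and 13.68 in the homozygotes. Homozygote 1 was the low array, and homozygote 2 lay just below wild type 2 and above both heterozygotes. Only 0.0333% of probe sets were brighter, and the deposited intensity of 9467 to 14218 was near the highest value on the arrays (15930 to 17154). A second Acta2 probe set, of lower brightness, read 6.43 and 5.90 in wild type, 5.01 and 5.07 in the heterozygotes, and 4.89 and 5.81 in the homozygotes, a range of 1.54 against 0.43 for the first. Whether brightness near the top of the scale narrows the first range was not tested. The third Acta2 probe set lay below the filter and ran differently, from 3.49 in wild type 2 to 5.48 in heterozygote 2.

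Actg2, the gamma-actin of visceral smooth muscle, read 11.21 and 10.26 in wild type, 9.10 and 9.89 in the heterozygotes, and 9.002 and 10.96 in the homozygotes. Wild type 1 and homozygote 2 were high, heterozygote 1 and homozygote 1 were low, and wild type 2 and heterozygote 2 lay between. The homozygotes thus spanned nearly the whole range of the 6 arrays. Acta1, the skeletal muscle alpha-actin, read 11.54 and 9.07 in wild type, 7.46 and 8.34 in the heterozygotes, and 6.65 and 9.81 in the homozygotes. Wild type 1 and homozygote 1 differed by 4.89 log2 units for Acta1, or 29.7-fold, and the homozygote arrays enclosed those of the heterozygotes. Muscle actins are nearly identical proteins with similar coding sequences, the main Acta2 probe set is of a kind (suffix _s_at) that can match several transcripts, and the part of cross-hybridization in these values was not tested.

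Of the calponin family and its relatives, Tagln (transgelin, or SM22-alpha, an actin-binding protein of smooth muscle) read 13.17 and 12.98 in wild type, 12.72 and 12.75 in the heterozygotes, and 12.52 and 13.08 in the homozygotes. Cnn1 (calponin 1, which binds actin and restrains the myosin ATPase) read 10.96 and 9.95 in wild type, 8.67 and 9.22 in the heterozygotes, and 7.45 and 10.64 in the homozygotes. For both genes the homozygote arrays lay on either side of the heterozygotes, and both heterozygote arrays lay below both wild-type arrays. The range over 6 arrays was 0.66 for Tagln and 3.51 for Cnn1, or 11.4-fold for Cnn1.

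Myl9, the regulatory light chain whose phosphorylation starts contraction, read 12.85 and 12.39 in wild type, 12.12 and 12.32 in the heterozygotes, and 11.78 and 12.75 in the homozygotes. Homozygote 1 was low and homozygote 2 was close to wild type 1. Tropomyosins lie along the actin filament and gate its access to myosin. Tpm2 read 13.04 and 12.80 in wild type, 12.44 and 12.58 in the heterozygotes, and 12.001 and 12.87 in the homozygotes, with the same culture low. Its 3 other probe sets differed between homozygotes and the mean of the other genotypes by -0.32, -0.32 and -0.12, against -0.28 for the brightest.

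Tpm1 read 12.91 and 12.42 in wild type, 12.21 and 12.45 in the heterozygotes, and 12.34 and 12.66 in the homozygotes, and was the 1 gene with its lowest value in heterozygote 1 and not in homozygote 1. Its next probe set followed it (12.87 and 12.41, 11.95 and 12.38, 12.16 and 12.56), whereas a dimmer probe set was highest in homozygote 1 at 7.73 and differed by 0.55 (SE 0.57) in homozygotes. Lmod1 (leiomodin 1, which nucleates actin filaments in smooth muscle) read 7.14 and 6.35 in wild type, 5.89 and 6.41 in the heterozygotes, and 5.62 and 6.44 in the homozygotes. Its arrays overlapped between all genotypes, with wild type 1 high and homozygote 1 low.

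**Figure D2:**
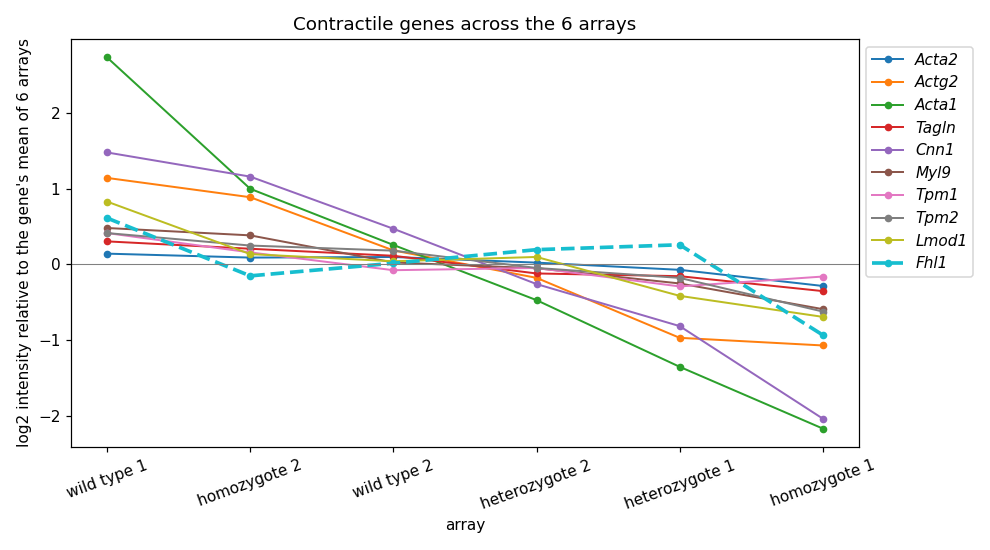
Log2 intensity of each contractile gene relative to its own mean of 6 arrays (vertical axis) in each array (horizontal axis), with 1 line for each gene and Fhl1 dashed. From wild type 1 (median of the 10 genes 0.55) to homozygote 1 (median -0.66) the median falls at each array in the order plotted, while single genes depart from it: Tpm1 is lower in heterozygote 1 than in homozygote 1, and Fhl1 is above its mean in both heterozygotes and below it in homozygote 2.

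Fhl1, a LIM-domain protein of muscle and stress fibres, was the exception. It read 12.04 and 11.44 in wild type, 11.68 and 11.62 in the heterozygotes, and 10.49 and 11.27 in the homozygotes, so that both homozygote arrays lay below the other 4. This separation was found for 1 of the 10 genes and for 4.02% of tested probe sets. Fhl1 lies on the X chromosome (the promoter table places it at chrX), and its values also separated by embryo sex, with the 3 arrays of high Xist at 11.62 to 12.04 and the 3 of low Xist at 10.49 to 11.44. Of all tested probe sets 2.8% were separated in that way. The second Fhl1 probe set lay below the filter, at 1.35 in wild type 2 and 3.82 to 4.59 in the other arrays.

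The study set homozygotes against both other genotypes, which asks whether the contractile programme changes when no intact exon 2 is left. All 10 contractile genes were on average lower in homozygotes than in the mean of wild type and heterozygotes, by a median of -0.22 log2 units, where the median of all tested probe sets was -0.0039 and 50.7% were lower. None passed the test. Fhl1 differed most surely, at -0.81 (SE 0.30, 95% confidence interval -1.53 to -0.089, 1.75-fold lower), but with a limma adjusted p = 1. Of the 10 genes it alone had an unadjusted limma p below 0.05 (0.033), where 1.27% of tested probe sets had such a p and a lower value. Acta1 differed by -0.87 (SE 1.02, interval -3.34 to 1.59), Cnn1 by -0.66 (SE 0.85), Lmod1 by -0.42 (SE 0.35), Tpm2 by -0.28 (SE 0.28), Myl9 by -0.15 (SE 0.32), Acta2 by -0.15 (SE 0.20, interval -0.63 to 0.34), Actg2 by -0.14 (SE 0.59), Tagln by -0.11 (SE 0.23) and Tpm1 by -0.00081 (SE 0.23). For Acta1 and Cnn1 the intervals hold differences of several fold in either direction, which is the precision that 2 arrays a genotype give. Over all probe sets limma called 0 of 22519 (0%), with 560 at an unadjusted p below 0.05, and 0 with an intensity trend in the prior.

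The direction in homozygotes rested on homozygote 1. Without this culture, 8 of the 10 genes were higher in homozygotes and the median difference was 0.16, with Cnn1 at 0.95, Actg2 at 0.85 and Acta1 at 0.71, Fhl1 at -0.42 and Lmod1 at -0.0015. Without homozygote 2 all 10 were lower, with a median of -0.77, Acta1 at -2.44 and Cnn1 at -2.24. Without wild type 1, 8 were lower and Acta1 was at -0.25, and without wild type 1 and homozygote 1 together 9 were higher, with a median of 0.25. With a covariate for embryo sex 8 of 10 were higher (median 0.42) and Fhl1 was at -0.16. The slope of that covariate rests almost wholly on the gap between wild type 1 and wild type 2, which holds 96.6% of its sum of squares within genotypes, so a sex effect and the height of wild type 1 cannot be told apart there.

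**Figure D3:**
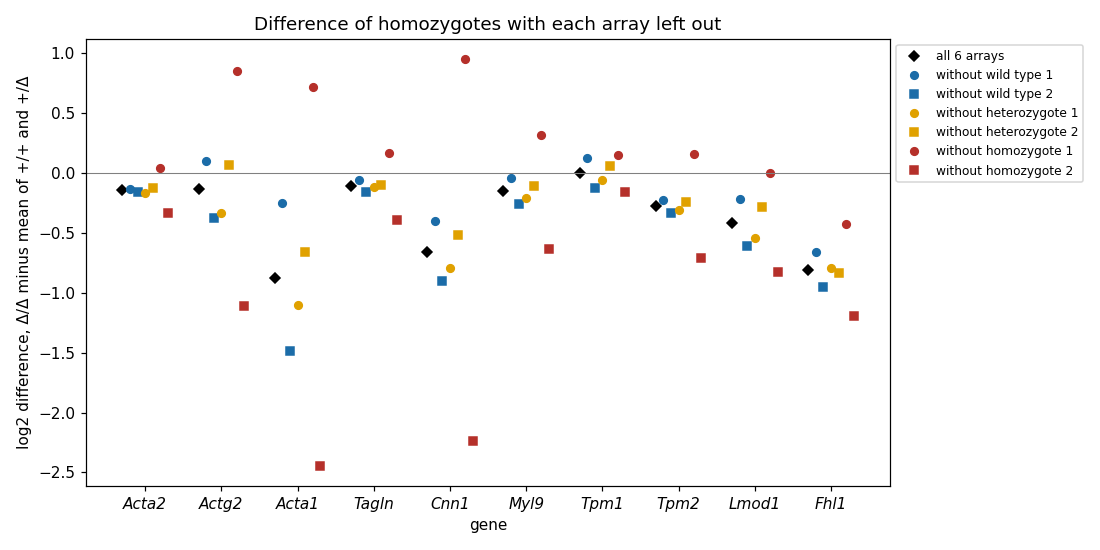
Log2 difference between homozygotes and the mean of the other genotypes (vertical axis) for each contractile gene (horizontal axis), with all 6 arrays (black diamonds) and with each array left out (coloured circles for replicate 1, squares for replicate 2). Leaving out homozygote 1 moves Cnn1 from -0.66 to 0.95, and leaving out homozygote 2 moves it to -2.24.

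Set against wild type alone, all 10 genes were lower in the homozygotes, with a median of -0.60 (all tested probe sets -0.016, 52.1% lower). Acta1 differed by -2.08 (SE 1.18) and Cnn1 by -1.41 (SE 0.98), while Acta2 differed by -0.22 (SE 0.23). Fhl1 differed by -0.85 (SE 0.34), and limma adjusted p-values ran from 0.973 to 0.980 over the 10 genes. Both homozygote arrays lay below both wild-type arrays for Acta2 and Fhl1, 2 of 10, where 14.9% of tested probe sets did. Fhl1 was also the 1 gene with an unadjusted limma p below 0.05, where 1.84% of tested probe sets had such a p and a lower value. Without homozygote 1 the median was -0.021, and without wild type 1 and homozygote 1 it was 0.16. Limma called 0 probe sets (0%), with 855 at an unadjusted p below 0.05.

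Set against heterozygotes, 6 genes were higher in homozygotes and 4 lower, with a median of 0.056 (all tested probe sets -0.0040, 50.7% lower). Fhl1 again had the lowest value, at -0.77 (SE 0.34), and both its homozygote arrays lay below both heterozygote arrays, as 12.8% of tested probe sets did. None of the 10 had an unadjusted limma p below 0.05, where 1.05% of tested probe sets had one and a lower value. Actg2 was at 0.48 (SE 0.68) and Acta1 at 0.33 (SE 1.18), and limma adjusted p = 1 for each gene. Limma called 0 probe sets (0%), with 488 at an unadjusted p below 0.05, and the counts of higher and lower genes changed to 9 and 1 without homozygote 1 and to 1 and 9 without homozygote 2.

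Heterozygotes and wild type were the pair in which the arrays of the contractile genes overlapped least. All 10 genes were lower in heterozygotes, with a median of -0.41 (all tested probe sets -0.0082, 51.1% lower), and both heterozygote arrays lay below both wild-type arrays for 7 of 10 (Acta2, Actg2, Acta1, Tagln, Cnn1, Myl9 and Tpm2), against 19.3% of tested probe sets. Because the genes moved together over the arrays, these are not 10 separate observations. Acta1 differed by -2.40 (SE 1.18, interval -5.25 to 0.44), Cnn1 by -1.51 (SE 0.98), Actg2 by -1.23 (SE 0.68) and Acta2 by -0.14 (SE 0.23), with -1.12 (SE 0.36) from the second Acta2 probe set. Fhl1 was at -0.087 (SE 0.34). Of the brightest probe sets of the 10 genes none had an unadjusted limma p below 0.05, where 2.42% of tested probe sets had one and a lower value, but the second Acta2 probe set did (0.020, interval -2.00 to -0.24). No gene passed (limma adjusted p from 0.838 to 0.974), and limma called 0 probe sets (0%), with 1185 at an unadjusted p below 0.05. The direction was kept by 9 of 10 genes without wild type 1, with a median of -0.23 and Fhl1 at 0.21, while Acta1 was then at -1.16. Wild type 1 and both heterozygotes had high Xist, and the median was -0.83 once embryo sex entered the fit as a covariate, whose slope is in effect the gap between the wild-type arrays.

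**Figure D4:**
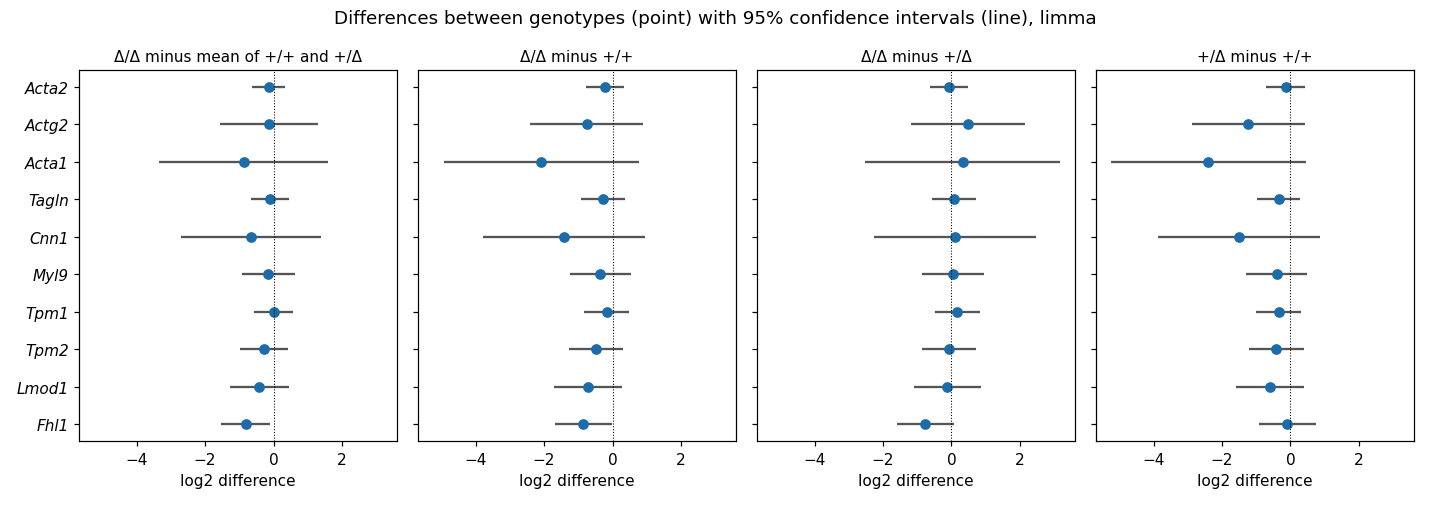
Log2 difference (horizontal axes) of each contractile gene (rows) in the 4 comparisons, with the point at the limma estimate and the line at its 95% confidence interval. The interval of Fhl1 lies below 0 in the comparison with both other genotypes (-1.53 to -0.089) and with wild type (-1.69 to -0.021), before adjustment, and every other interval includes 0.

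In the median, the arrays of wild type and of the homozygotes agreed less for these genes than for all tested probe sets. Those of the heterozygotes agreed slightly more in the median, though not for every gene. The 2 homozygote arrays differed by a median of 0.85 log2 units over the 10 genes, with a range from 0.32 for Tpm1 to 3.19 for Cnn1, where the median of all tested probe sets was 0.32. The wild-type arrays differed by a median of 0.54 (all tested probe sets 0.34) and the heterozygote arrays by 0.22 (all tested probe sets 0.28). The heterozygote differences ran from 0.036 for Tagln to 0.88 for Acta1. For 9 of the 10 genes the homozygotes were the genotype whose arrays lay farthest apart, which held for 36.3% of tested probe sets, and the exception was Tpm1. The 3 genotype means spanned less than the widest gap between 2 arrays of a genotype for 9 of 10 genes, and for 79.6% of tested probe sets. Fhl1 was the gene whose genotype means spanned more, at 0.85 against 0.78 between the homozygote arrays. The median range over 6 arrays was 1.29 for the 10 genes and 0.77 for all tested probe sets.

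Pairs of contractile genes had a median Pearson r of 0.92 over the 6 arrays (45 pairs, from 0.45 to 0.99), given as a description, since the pairs share the same 6 cultures. Tpm2 had an r of 0.98 with Acta2 and Cnn1 0.96, while Tpm1 had 0.66 and Fhl1 0.79. Fhl1 also had the weakest likeness to the mean of the other genes, with an r of 0.68.

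SRF and its cofactors did not follow the order of their targets. Srf read 8.43 and 7.59 in wild type, 7.09 and 8.15 in the heterozygotes, and 7.83 and 7.47 in the homozygotes, with a difference of homozygotes from the other genotypes of -0.16 (SE 0.38). Mrtfa read 8.39 and 8.40 in wild type, 8.25 and 8.40 in the heterozygotes, and 7.94 and 8.05 in the homozygotes, a difference of -0.37 (SE 0.18, limma adjusted p = 1). Mrtfb read 9.26 and 9.28 in wild type, 9.08 and 8.98 in the heterozygotes, and 8.94 and 8.97 in the homozygotes, a difference of -0.20 (SE 0.18, limma adjusted p = 1). Both homozygote arrays of Mrtfa and of Mrtfb lay below the other 4, as they did for 4.02% of tested probe sets, although for Mrtfb only narrowly (8.97 in homozygote 2 against 8.98 in heterozygote 2). Myocd, the myocardin of smooth muscle and heart, lay below the filter in all genotypes, between 3.79 and 4.33.

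Other smooth muscle and stress fibre genes had 0 of 25 called, with 18 lower and 7 higher in homozygotes and a median of -0.19. The lowest was Palld (palladin, a scaffold of stress fibres), at -0.43 (SE 0.26), and the highest was Des (desmin, a muscle intermediate filament), at 0.54 (SE 0.52). Wild type 1 was the highest array for 15 of these 25 genes and homozygote 1 the lowest for 12.

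Of the actins outside the contractile set, the cytoplasmic ones varied little between cultures, at a brightness like that of Acta2. Whether that brightness narrows their ranges was not tested. Actb, a cytoplasmic actin, read 13.48 and 13.42 in wild type, 13.41 and 13.41 in the heterozygotes, and 13.53 and 13.49 in the homozygotes. Actg1, the other cytoplasmic actin, lay between 13.49 and 13.71, and Actc1, the cardiac actin, between 4.47 and 5.43. Their differences in homozygotes were 0.081 (SE 0.18), -0.053 (SE 0.18) and 0.23 (SE 0.36), and 0 of 3 were called. TGF-beta, the cytokine best known for inducing myofibroblasts, was represented by 14 measured genes (ligands, receptors, Smad proteins and induced genes), of which 0 were called and 7 were lower, with a median of 0.010. Tgfbr1, its type I receptor, had the highest value at 0.46 (SE 0.24), and Ltbp1, a latent TGF-beta binding protein, the lowest at -0.49 (SE 0.25). Wild type 1 was the lowest array for 6 of the 14 and the highest for 4.

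**Figure D5:**
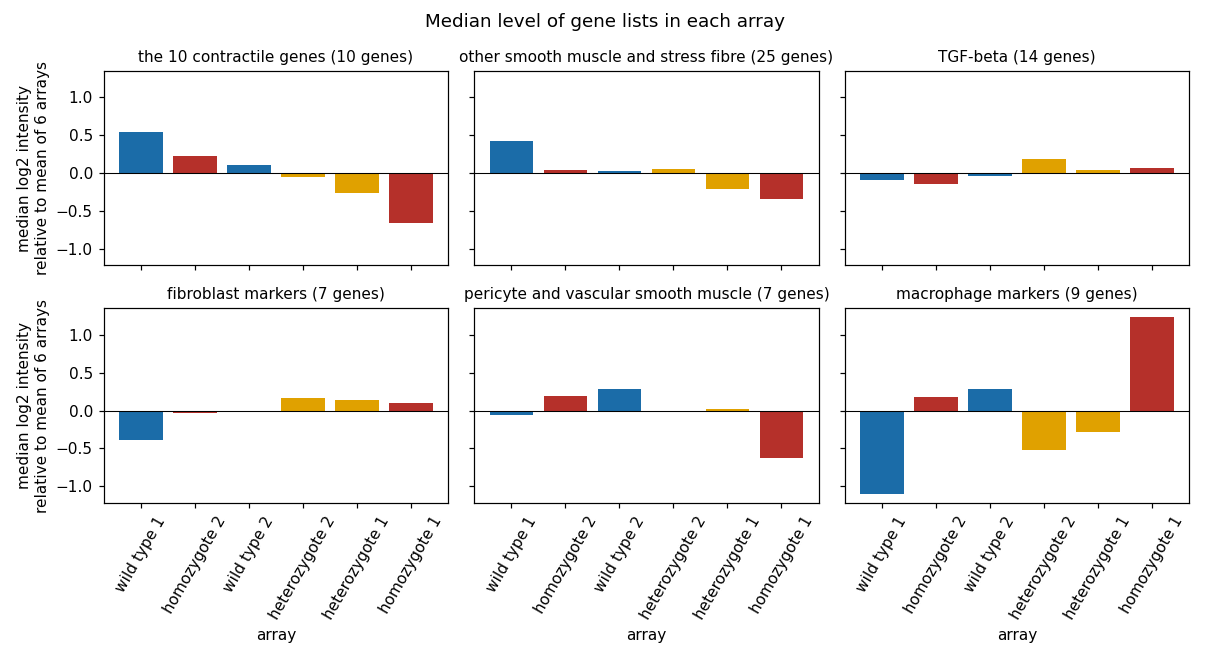
Median log2 intensity of each gene list relative to the mean of 6 arrays (vertical axis, bars from 0) in each array (horizontal axis), with blue for wild type, yellow for heterozygotes and red for homozygotes. Macrophage markers run from -1.10 in wild type 1 to 1.23 in homozygote 1, opposite to the contractile genes (0.55 and -0.66).

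Markers of other cells moved over the same arrays. Of 10 macrophage markers 9 were above the filter, and homozygote 1 was the highest array for all 9 (18.7% of tested probe sets) and wild type 1 the lowest for 8 (24.2%), the reverse of the contractile genes. All 9 were on average higher in homozygotes than in the other genotypes, with a median of 1.304 and 0 called by limma. The summed deposited intensity of the 10 was 2544 and 5270 in wild type, 4351 and 4384 in the heterozygotes, and 11229 and 5813 in the homozygotes. Homozygote 2 and wild type 2, which were above the heterozygotes in the median of the contractile genes, were also above them in the sum of these markers. Fibroblast markers had no single direction. Wild type 1 was the lowest array for 4 of 7 and the highest for 1, and homozygote 1 was the highest for 2 and the lowest for 2. Pdgfra ran from 6.80 in wild type 1 to 10.44 in homozygote 1, while Vim was highest in wild type 1 (13.81) and lowest in homozygote 1 (13.68). The summed intensity of the 7 fibroblast markers was 45830 and 52712 in wild type, 57356 and 61344 in the heterozygotes, and 54464 and 54771 in the homozygotes. Other marker lists had their highest median in wild type 1, as the contractile genes did. Neural and glial markers (4 of 5 above the filter) ran from a median of 1.03 in wild type 1 to -1.08 in homozygote 1, with homozygote 2 at -0.23, and their summed intensity was 2346 and 1710 in wild type, 1268 and 2135 in the heterozygotes, and 459 and 454 in the homozygotes. All 4 were on average lower in homozygotes than in the other genotypes, with a median of -1.25 and 0 called by limma. Stmn2, the brightest of them, weighs most in that sum. It read 10.82 and 10.64 in wild type, 10.19 and 10.77 in the heterozygotes, and 8.46 and 8.08 in the homozygotes. Tubb3 of the same list was highest in homozygote 2 (7.23) and lowest in homozygote 1 (6.15). Epithelial markers (4 of 6 above the filter) had a median of 0.83 in wild type 1 and between -0.74 and 0.082 elsewhere, with summed intensities of 693 in wild type 1, 404 in homozygote 2 and 226 to 290 in the other arrays. Endothelial markers (3 of 6 above the filter) had medians of 0.88 in wild type 1 and 0.68 in homozygote 2 and between -0.72 and 0.15 elsewhere, with summed intensities from 92.8 to 180 over the arrays, and Pecam1, Cdh5 and Tie1 were below the filter. Their part in the result was not tested.

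Muscle markers were mixed. Of 14 skeletal muscle markers 13 lay below the filter, Myod1, Myog and Myf5 among them, and the summed deposited intensity of the 14 was 114 and 142 in wild type, 109 and 159 in the heterozygotes, and 123 and 108 in the homozygotes. Mylpf, the 1 skeletal muscle marker above the filter, read from 4.11 in heterozygote 1 to 5.00 in homozygote 1. The part of muscle cells in the 29.7-fold range of Acta1, a skeletal muscle actin, was not tested. Of 9 cardiac markers 3 were above the filter, and the sum of the 9 was 334 and 206 in wild type, 170 and 192 in the heterozygotes, and 205 and 169 in the homozygotes. Nppb, a natriuretic peptide, was highest in wild type 1 (7.58), next in homozygote 2 (5.48) and lowest in homozygote 1 (4.55), as were most contractile genes. The other cardiac markers above the filter differed. Tnnt2 was highest in homozygote 1 (5.86, against 4.68 in wild type 1), and Myl4 was highest in wild type 2 (6.19) and lowest in homozygote 1 (5.29). Of 8 pericyte and vascular smooth muscle markers 7 were measured, with 0 called, 5 lower and 2 higher in homozygotes and a median of -0.33. Homozygote 1 had the lowest median of that list (-0.62) and wild type 2 the highest (0.28). The summed intensity of the 8 was 2255 and 2834 in wild type, 4204 and 3979 in the heterozygotes, and 2687 and 3511 in the homozygotes. Kcnj8 of that list lay below the filter, and Myh11, the smooth muscle myosin, read 7.30 and 6.27 in wild type, 5.11 and 5.81 in the heterozygotes, and 5.22 and 6.63 in the homozygotes. Mcam, an adhesion molecule of these cells, read 7.85 and 6.43 in wild type, 4.84 and 5.69 in the heterozygotes, and 5.06 and 6.67 in the homozygotes. Both followed the common order of the contractile genes except that heterozygote 1 was lower than homozygote 1. The other measured markers of the list departed further. Pdgfrb and Notch3 were lowest in wild type 1 (10.30 and 7.06) and highest in heterozygote 1 (11.82 and 8.36). Cspg4 was highest in the heterozygotes (8.10 and 8.17), Rgs5 in wild type 2 (6.73) and Abcc9 in homozygote 2 (5.53). The part of these cell types in the result was not tested.

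Bcar1 itself read 9.37 and 8.42 in wild type, 8.19 and 8.32 in the heterozygotes, and 8.08 and 8.43 in the homozygotes, and its 6 arrays stood in the order shared by the 6 contractile genes named above. The place of its probe set relative to the deleted exon is unknown here, and the level checks nothing about the deletion.

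Genes outside the set whose pattern was most like its mean were sought among 2062 genes that varied at least as much (SD of 0.46 or more over the arrays). The 10 with the highest Pearson r over the 6 arrays were Fam181b (0.99), Prkag2 (0.98), Mllt11 (0.98), Tgm2 (0.98), Bag2 (0.98), Acot7 (0.98), Clip2 (0.97), Prkg2 (0.97), Lsm11 (0.96) and Gzme (0.96). Tgm2, the tissue transglutaminase that crosslinks matrix proteins, read 10.90 and 9.66 in wild type, 8.77 and 9.59 in the heterozygotes, and 8.44 and 9.94 in the homozygotes. Its homozygote arrays enclosed those of the heterozygotes, as for Acta1 and Cnn1, a likeness for which it was picked. The mean was not scaled, so Acta1 and Cnn1, with the widest ranges, weigh most in it. With 6 arrays such an r is a description of these cultures.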

How the data were processed

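Expression was measured on Affymetrix arrays, 1 for each of 6 embryos. The authors' deposited values were linear probe set intensities, the summary of probes and any scaling being not given in the sources used here. Intensities were converted to log2(intensity + 1.78), the pseudocount being the 10th percentile of all intensities, and quantile normalized, since the array medians spanned 0.29 log2 units. After 64 control probe sets were left out, the upper 50% by mean log2 intensity were tested, or 22519, and the brightest probe set stands for its gene. Symbols came from a platform annotation, updated through Entrez identifiers. Tests used limma 3.58.1 under R 4.3.3, with a mean for each genotype over all 6 arrays with 3 residual degrees of freedom, Benjamini-Hochberg adjustment over all tested probe sets and a threshold of 0.05. SE and 95% intervals come from that fit. On simulated data for homozygotes against both other genotypes (22519 probe sets), 8.96% of changes of 1 log2 unit, 91% of 2 and 100% of 4 were recovered. The simulation held 67, 67 and 66 changed probe sets of these sizes. Its shares need not hold for the real data, where limma called 0 in that comparison. There Stmn2 at -2.34 (SE 0.25) was not called, and Acta1 and Cnn1 had an SE of 1.02 and 0.85. The alternatives were other normalizations, pseudocount, filters, an intensity trend, a replicate block, a sex covariate (mean log2 of Eif2s3y, Kdm5d and Uty minus that of Xist), averaged probe sets, the compared genotypes alone and each array left out. Leaving out wild type 1 and homozygote 1 together was added after seeing the data. Genes named were all members, SRF, its cofactors and the other actins, the highest and lowest gene of each list (1 list is not reported here), and the 10 genes most like the members. Markers were named for their role, and Tgm2 and the marker examples were singled out after their values were seen. The members and lists were chosen with earlier results of these data known.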

Additional observations from a re-analysis of the deposited data

How the results depend on the processing

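No contractile gene passed the threshold under any alternative in any of the 4 comparisons (lowest limma adjusted p = 0.218, for heterozygotes against wild type with the sex covariate). Of the alternative values of single genes, 594 kept the direction and 72 reversed it. The precision is limited by 2 arrays a genotype. Acta2 had an intensity near the top of the scale, and whether that limits its differences was not tested. Lmod1 fell below the filter when the upper 25% of probe sets was tested.

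For homozygotes against both other genotypes, leaving out each array in turn gave medians from -0.77 to 0.16, Acta2 from -0.33 to 0.041, Actg2 from -1.11 to 0.85, Acta1 from -2.44 to 0.71, Tagln from -0.39 to 0.17, Cnn1 from -2.24 to 0.95, Myl9 from -0.64 to 0.32, Tpm1 from -0.16 to 0.15, Tpm2 from -0.71 to 0.16, and 0 to 2 called probe sets. Against wild type the median ran from -1.02 to -0.021, Actg2 from -1.72 to 0.22, Cnn1 from -2.99 to 0.19, Myl9 from -0.84 to 0.12 and Tpm1 from -0.41 to 0.073. Against heterozygotes the median ran from -0.50 to 0.35, Acta2 from -0.26 to 0.11, Actg2 from -0.49 to 1.47, Acta1 from -1.25 to 1.93, Tagln from -0.22 to 0.34, Cnn1 from -1.49 to 1.71, Myl9 from -0.44 to 0.52, Tpm2 from -0.51 to 0.36, Lmod1 from -0.53 to 0.30, and 0 to 3 probe sets were called. For heterozygotes against wild type Fhl1 ran from -0.38 to 0.21, and 0 to 3 probe sets were called.

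With the sex covariate, whose slope rests on the gap between the wild-type arrays also where homozygotes and heterozygotes are compared, the median for homozygotes against both others was 0.42, with Actg2 at 1.05, Acta1 at 1.85, Tagln at 0.15, Cnn1 at 0.77, Myl9 at 0.41, Tpm1 at 0.49, Tpm2 at 0.072 and Lmod1 at 0.43. Tpm1 was at 0.11 against wild type. Against heterozygotes the median was 0.87, with Acta2 at 0.074, Tpm2 at 0.43, Lmod1 at 1.09 and Fhl1 at 0.17. Heterozygotes against wild type had a median of -0.83 and 1 called probe set. Without wild type 1 and homozygote 1 together, the median against both others was 0.25, with Acta2 at 0.050, Actg2 at 1.08, Acta1 at 1.33, Tagln at 0.22, Cnn1 at 1.19, Myl9 at 0.43, Tpm1 at 0.27, Tpm2 at 0.21 and Lmod1 at 0.19. Against wild type it was 0.16, with Actg2 at 0.70, Acta1 at 0.74, Tagln at 0.091, Cnn1 at 0.69, Myl9 at 0.34, Tpm1 at 0.23, Tpm2 at 0.072 and Lmod1 at 0.094. Against heterozygotes Acta2 was at 0.11, Tpm2 at 0.36 and Lmod1 at 0.30, with 4 called probe sets, and heterozygotes against wild type had 5, with Fhl1 at 0.21. A lone array is assumed to vary like the other groups.

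With averaged probe sets, homozygotes differed from both others by 0.14 for Acta2, 0.067 for Tpm1 and 0.029 for Fhl1, from wild type by 0.065 for Acta2 and 0.40 for Fhl1, and from heterozygotes by 0.21 for Acta2, and Fhl1 was at 0.74 in heterozygotes against wild type. There 0 genes had both homozygote arrays below the other 4. Against heterozygotes Myl9 was at -0.037 in the deposited values without normalization and Acta2 at 0.022 with median centring, and 2 probe sets were called with these genotypes alone. The cause of these reversals was not tested.

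Whether the replicate numbers pair the samples is not given. The deviations of same-numbered arrays correlated at -0.36, -0.14 and -0.14 between genotypes, so no shared shift was seen. These values cannot decide it, because the wild-type arrays also differ in embryo sex. With the replicate block 0 probe sets were called in each comparison and the medians were unchanged, at -0.22 for homozygotes against both others. Wild type 1 was the highest array for 10 genes without normalization, with median centring and with a pseudocount of 16, and for 8 with averaged probe sets. Homozygote 1 was the lowest for 9, 10, 9 and 7 in the same order.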
